A study of Mus musculus with 16 samples.

Results

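The comparison described here is that of propranolol in Ccm3 wild-type brain endothelial cells: 2 libraries of cells given 10 µM propranolol for 24 h (WT+P) against 3 libraries of untreated cells (WT), 5 of the 16 RNA-seq libraries of the series. The members were chosen by genotype and treatment alone, and the libraries with replicate numbers 1 and 2 were paired by number, which leaves WT replicate 3 without a treated partner. The series asked how propranolol and rapamycin, both drugs proposed for cerebral cavernous malformations, act on mBMEC, cultured endothelial cells of mouse brain microvessels, when Ccm3 (Pdcd10) is present or deleted. It also holds wild-type cells given 100 nM rapamycin for 24 h (WT+R, 2 libraries). Cells in which the gene was deleted were untreated (KO, 3 libraries) or given propranolol (KO+P, 3 libraries). These groups serve below as comparisons. The remaining group, deleted cells given rapamycin (KO+R, 3 libraries), entered the fit to all 16 libraries. No drug effect is given for KO+R below.

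All groups came from adult mice of 8 to 10 weeks on the C57BL/6J background that carried floxed Pdcd10 alleles (Pdcd10 fl/fl) and Cdh5(PAC)-CreERT2, a tamoxifen-inducible recombinase under an endothelial promoter. WT cells carried the same alleles and Cre as KO cells and were never given 4-hydroxytamoxifen, so "wild type" means not recombined by design. The cells were grown on collagen after selection with puromycin, each culture was a pool of brains, and no vehicle was named for the untreated cells. The labels call the libraries biological replicates.

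Propranolol blocks β-adrenergic receptors, which in endothelial cells couple to adenylyl cyclase, cAMP and protein kinase A. It is also a lipophilic amine, a class known to collect in acidic organelles. Cholesterol synthesis is switched by SREBP2, a transcription factor held in the endoplasmic reticulum by SCAP and the INSIG proteins while sterol is plentiful. When sterol falls it is carried to the Golgi, cleaved, and drives the genes of the mevalonate and sterol pathways and INSIG1 itself.

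The start regions of 2 genes are shown because both gene groups that the results below turn on, sterol synthesis and the ATF4 stress response, have known promoter motifs. Each window holds the 250 bases before the annotated start of the canonical transcript, 5′ to 3′ on the strand of the gene, in GRCm39. Capitals mark letters that match the sterol regulatory element TCACNCCAC, the CCAAT box, the cAMP response element TGACGTCA or the amino acid response element TGATGNAAN, each searched on both strands, with positions counted back from the start. Hmgcs1 (chr13:120151732-120151981, plus strand) holds a sterol element at -232 and CCAAT boxes at -140 and -85. Chac1 (chr2:119181439-119181688, plus strand) holds an amino acid response element at -160 and CCAAT boxes at -116 and -25.
Hmgcs1: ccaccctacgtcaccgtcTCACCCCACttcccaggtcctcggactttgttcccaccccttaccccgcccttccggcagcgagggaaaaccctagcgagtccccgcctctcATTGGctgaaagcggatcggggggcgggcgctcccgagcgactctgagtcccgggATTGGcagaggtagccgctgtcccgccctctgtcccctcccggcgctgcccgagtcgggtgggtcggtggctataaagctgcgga
Chac1: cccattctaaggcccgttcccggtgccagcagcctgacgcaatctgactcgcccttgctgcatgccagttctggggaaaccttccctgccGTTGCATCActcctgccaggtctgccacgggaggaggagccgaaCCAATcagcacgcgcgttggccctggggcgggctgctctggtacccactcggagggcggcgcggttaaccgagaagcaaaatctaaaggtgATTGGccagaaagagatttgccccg
No motif shared bases with another in these windows. Of 14837 windows of tested genes, 1.004% held the sterol element as spelled, 35.65% a CCAAT box, 1.921% the cAMP element and 2.137% the amino acid element. The sterol element was in 2 of the 11 genes called higher below (Hmgcs1 is 1 of them) and in 1 of 28 tested cholesterol genes, and the CCAAT box in 8 of 11 and 20 of 28. The cAMP element was in 0 of these 11 genes and in 8 of 38 CREB target and immediate early genes, and the amino acid element was in 8 of 38 ATF4 targets. These matches are a description of letters in a short window.

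The 5 libraries held 21378543 to 26203339 estimated counts, and levels are given as CPM (a gene's share of the library's counts, scaled to equal library totals by TMM). Markers placed all 5 as endothelial: the 18 endothelial markers summed to 17915 to 21312 CPM in WT and 10813 to 16711 CPM in WT+P, and none was at 0. Mural markers, the next highest list, summed to 659 to 1570 CPM in WT and 661 to 1978 CPM in WT+P, with 2 to 4 of 16 at 0. Most of this sum was Mcam, Tagln and Acta2, named after their values were seen. Acta2 was at 32.5, 170 and 61.8 CPM in WT and at 171 and 310 CPM in WT+P. Mcam was at 627, 699 and 428 CPM in WT and at 244 and 535 CPM in WT+P, so the sum joins unlike changes. The other 6 lists, for fibroblasts, astrocytes, microglia, oligodendrocytes, neurons and choroid plexus, each stayed between 15.6 and 306 CPM. Mitochondrial transcripts took 1.26 to 1.88% of counts in WT, 0.971% in WT+P replicate 1 and 1.70% in WT+P replicate 2.

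Pdcd10, the gene targeted in KO cells, went against 1 label. It was at 11.5, 31.2 and 47.0 CPM in WT replicates 1 to 3, at 60.8 and 32.5 CPM in WT+P and at 9.72, 11.0 and 9.73 CPM in KO. The library labelled WT replicate 1 was therefore at the KO level for this gene, and results are given with and without it. In Klf2, Klf4, Adamts1, Nos3 and Thbs1 it lay outside the KO range. Thbs1, for example, was at 3095 CPM in it and at 1516 to 1928 CPM in KO. Klf2 was at 269 CPM in it and at 431 to 572 CPM in KO. Whether its label is right was not tested. Its pair also had the wider differences: over 14838 tested genes the SD of the log2 difference was 0.734 in pair 1 and 0.350 in pair 2, and 12.7% against 1.52% of genes differed by more than 2-fold. KO pairs 1 to 3 had SDs of 0.733, 0.507 and 0.350, so pair 1 was also the widest among the KO pairs. What sets pair 1 apart was not tested.

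Sterol synthesis genes were higher with propranolol. By edgeR's quasi-likelihood test with the replicate number as a block, 12 of 14838 genes (0.0809%) passed a Benjamini-Hochberg adjusted p of 0.05 with a fold over 1.5, 11 of them higher (0.0741%) and 1 lower (0.00674%), out of 1993 (13.4%) at an unadjusted p under 0.05. Of the 11, 7 were SREBP2 targets or enzymes of cholesterol synthesis and 1 was fatty acid synthase. The others were the nuclear receptor Nr4a1, the calcium pump Atp2a3 and the Wnt regulator Dkk2. Exons of 5 of the 11 overlapped another gene, by up to 28.3% of bases. In all 11 both WT+P libraries lay above all 3 WT libraries, which held for 10.8% of all tested genes. Adjusted p ran from 0.0204 to 0.0457 in edgeR. In DESeq2 with the same block all 11 passed too, at 1.21e-13 to 4.00e-06, among 129 genes called higher (0.869%). These edgeR calls depended on several choices. Without the block the adjusted p was 0.0876 to 0.449 and none of the 11 passed, and without the library labelled WT replicate 1 it was 0.222 to 0.299 and none passed. None passed either without WT+P replicate 1, with fewer groups in the fit or with glmTreat, and 1 passed without WT replicate 2, 6 with a length offset and 9 without WT replicate 3. In DESeq2 without the library labelled WT replicate 1 all 11 passed, at 1.75e-08 to 0.00129, among 48 tested genes called higher (0.323%) and 4 lower (0.027%).

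**Figure D1:**
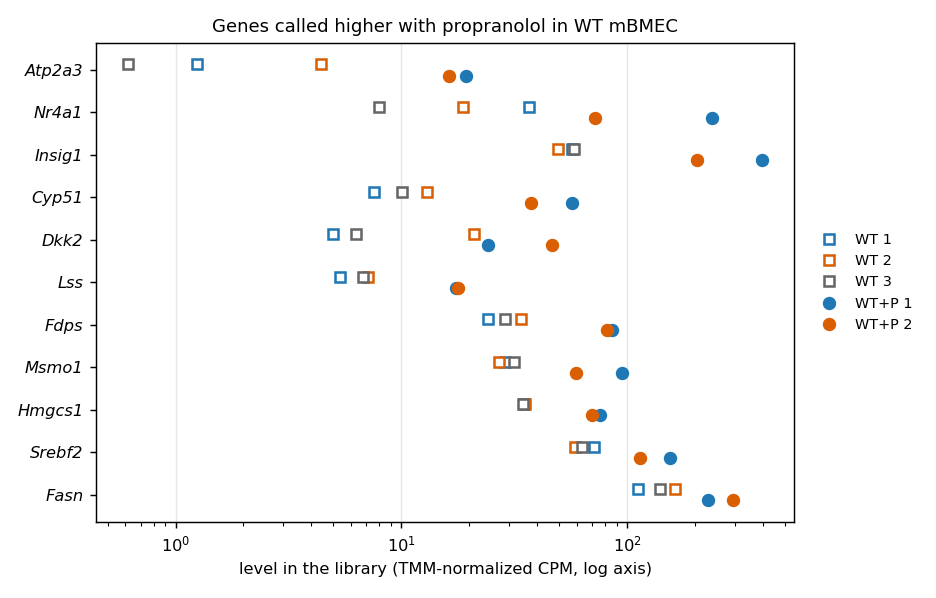
Level of the 11 genes called higher, in TMM-normalized CPM on a log axis, 1 point per library. Open squares are the 3 WT libraries and filled circles the 2 WT+P libraries, coloured by replicate number; in every row both circles lie to the right of all squares, with the narrowest gap in Dkk2.

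Gene positions are given in GRCm39. Insig1 (chr5:28276315-28283668), which retains SREBP2 in the endoplasmic reticulum and is itself its target, was at 56.9, 49.4 and 58.1 CPM in WT and at 398 and 205 CPM in WT+P. It rose 4.77-fold (log2 2.26 ± 0.32, SE, edgeR adjusted p = 0.0363). Both treated libraries stood far above a tight untreated group. Srebf2 (chr15:82031382-82093201), which encodes SREBP2, was at 71.4, 58.6 and 63.5 CPM in WT and at 155 and 114 CPM in WT+P, a 1.96-fold rise (log2 0.97 ± 0.14, edgeR adjusted p = 0.0366). Of its exonic bases 10.7% also belong to Shisa8, and the counting here was not by strand. Scap, the escort of SREBP2, named after its values were seen, was at 92.0, 95.2 and 95.5 CPM in WT and at 93.9 and 96.1 CPM in WT+P (log2 0.04, edgeR adjusted p = 0.866), and Insig2, the second INSIG gene, had log2 0.08 (0.714).

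Among the enzymes, the early mevalonate steps were represented by Hmgcs1 (chr13:120151915-120170470), HMG-CoA synthase, whose start region was shown above and of whose exonic bases 12.0% overlap Gm48342. It was at 34.9, 35.3 and 34.8 CPM in WT and at 76.1 and 70.2 CPM in WT+P, and rose 1.99-fold (log2 0.99 ± 0.14, edgeR adjusted p = 0.0363). The untreated libraries differed by less than 1 CPM, and both treated libraries lay at about the same distance above them.

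Fdps (chr3:89000888-89019213), farnesyl diphosphate synthase, which makes the last common precursor of sterols and prenyl groups, was at 24.1, 33.8 and 29.0 CPM in WT and at 85.6 and 81.3 CPM in WT+P. It rose 2.57-fold (log2 1.36 ± 0.18, edgeR adjusted p = 0.0363). The step after it, squalene synthase (Fdft1), had a log2 fold change of 0.62 with an edgeR adjusted p of 0.0747, and Idi1, the isomerase before it, had 1.35 with the same adjusted p. Neither passed.

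The sterol ring and its trimming were covered by 3 called genes. Lss (chr10:76367298-76392976), lanosterol synthase, was at 5.34, 7.13 and 6.77 CPM in WT and at 17.5 and 17.9 CPM in WT+P (2.70-fold, log2 1.43 ± 0.20, edgeR adjusted p = 0.0363). Cyp51 (chr5:4123416-4154751), the lanosterol demethylase, was at 7.55, 13.0 and 10.1 CPM in WT and at 56.8 and 37.4 CPM in WT+P. It rose 4.40-fold (log2 2.14 ± 0.31, edgeR adjusted p = 0.0363), and 28.3% of its exonic bases overlap Akap9. Msmo1 (chr8:65170603-65186830), a methylsterol oxidase, was at 28.8, 27.2 and 31.5 CPM in WT and at 95.1 and 59.5 CPM in WT+P (2.40-fold, log2 1.26 ± 0.18, edgeR adjusted p = 0.0363). In all 3 the groups did not overlap, and Lss had the closer treated values.

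Over the whole list of cholesterol synthesis genes and SREBP2 targets, 28 of 30 genes passed the filter on low counts. The median log2 fold change was 0.84, against -0.00 over all tested genes, with 0.99 in pair 1, 0.67 in pair 2 and 0.69 when the library labelled WT replicate 1 was left out. Of the 28, 7 were called higher and 0 lower by edgeR, 21 were higher and 1 lower at an unadjusted p under 0.05 (8.84% and 4.6% of all genes), and DESeq2 called 17 higher. Both pairs were higher in 26 (30.6% of all genes), and 22 had no overlap (10.8%). In both WT pairs and all 3 KO pairs 21 were higher (14.6% of all genes). Stard5, a sterol carrier, was the exception with log2 -0.41. The list was drawn up with earlier results of these data known.

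**Figure D2:**
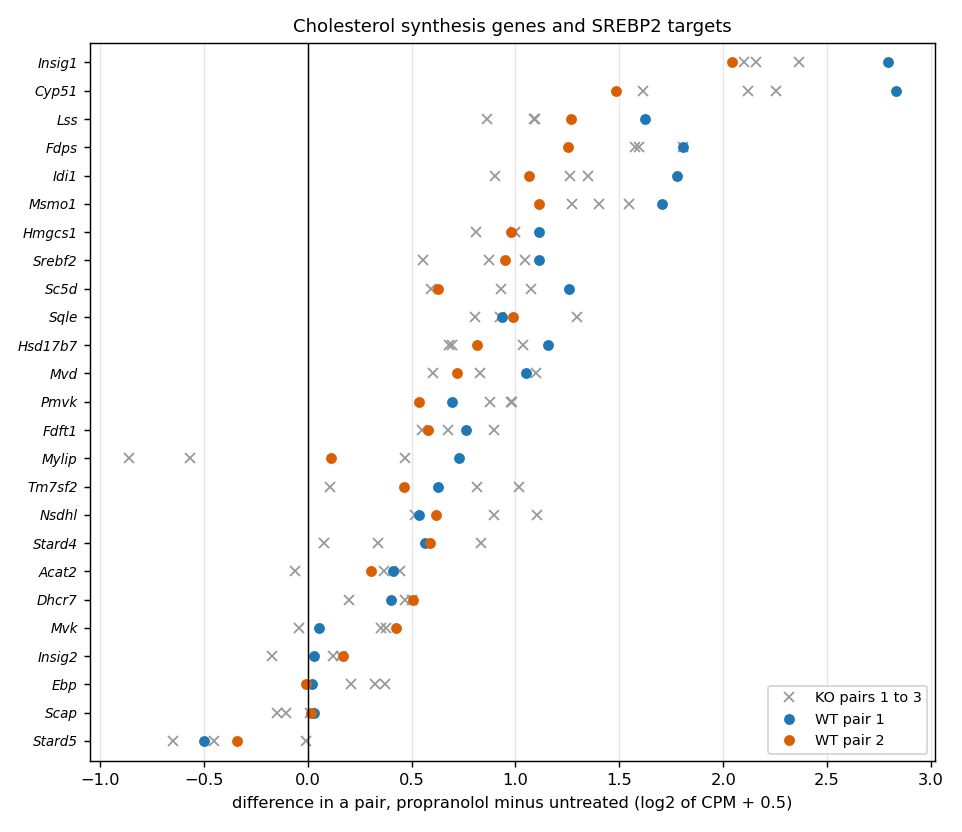
Difference between the propranolol and the untreated library of each replicate pair, in log2(CPM + 0.5), for 25 of the 28 tested cholesterol genes, ordered by the fitted fold change. Filled circles are the 2 WT pairs and crosses the 3 KO pairs. Of those shown, 23 lie right of 0 in both WT pairs, and of these Insig1 and Cyp51 lie farthest right.

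Among the genes of fatty acid synthesis, 1 was called. Fasn (chr11:120696672-120715995), fatty acid synthase, was at 112, 164 and 140 CPM in WT and at 229 and 294 CPM in WT+P, rose 1.87-fold (log2 0.91 ± 0.10) and had the smallest edgeR adjusted p of the 11, 0.0204. Here, unlike in most of the 11, WT+P replicate 2 was the higher of the treated libraries. Scd2, a stearoyl-CoA desaturase that makes monounsaturated fatty acids, was at 129, 182 and 167 CPM in WT and at 606 and 699 CPM in WT+P (log2 2.02 ± 0.33), with an edgeR adjusted p of 0.0696 and a DESeq2 adjusted p of 2.21e-06. Acaca, acetyl-CoA carboxylase, had log2 0.72 (edgeR adjusted p = 0.0747), Fads1, a fatty acid desaturase, 0.98 (0.208, with 15.8% of its exonic bases shared), and Srebf1, the SREBP of lipogenesis, 0.52 (0.139). Of 25 tested members of 30, edgeR called 1 and DESeq2 7 higher. At an unadjusted p under 0.05, 10 were higher (8.84% of all genes), and the median was 0.35.

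Nr4a1 (chr15:101151980-101172681), an orphan nuclear receptor induced early by cAMP and calcium signals, was at 36.9, 18.8 and 8.00 CPM in WT and at 237 and 71.9 CPM in WT+P. It rose 6.56-fold (log2 2.71 ± 0.40, edgeR adjusted p = 0.0366). The groups did not overlap, and within each the first library was the highest. Its relative Nr4a2 was at 2.44, 4.63 and 2.42 CPM in WT and at 33.0 and 13.1 CPM in WT+P (log2 2.90 ± 0.49, edgeR adjusted p = 0.0747, DESeq2 2.02e-06), and Nr4a3 was at 0.828, 0.299 and 0.410 CPM in WT and at 9.94 and 1.85 CPM in WT+P (log2 3.31 ± 0.62, edgeR adjusted p = 0.101, DESeq2 0.00076). All 3 family members were thus higher in both treated libraries than in any untreated one, and Nr4a1 alone passed in edgeR. In the list of 38 CREB target and immediate early genes, edgeR called 1 and DESeq2 6 higher. At an unadjusted p under 0.05, 17 were higher and 1 lower (8.84% and 4.6% of all genes). The list's median was 1.07 in pair 1 and 0.05 in pair 2, so the group as a whole was higher in the first pair. Egr3, a zinc-finger factor, had log2 2.95 and Dusp4, a MAP kinase phosphatase, 1.18, both with an edgeR adjusted p of 0.279.

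The last 2 genes called higher belong to neither group. Atp2a3 (chr11:72851990-72883870), SERCA3, which pumps calcium into the endoplasmic reticulum, was at 1.24, 4.41 and 0.615 CPM in WT and at 19.3 and 16.3 CPM in WT+P. It had the largest rise of the 11, 7.60-fold (log2 2.93 ± 0.43, edgeR adjusted p = 0.0366), from an untreated level that itself varied several-fold. Dkk2 (chr3:131790336-131886065), a secreted regulator of Wnt receptors, was at 4.97, 20.9 and 6.32 CPM in WT and at 24.2 and 46.5 CPM in WT+P (3.32-fold, log2 1.73 ± 0.27, edgeR adjusted p = 0.0457). The groups did not overlap, but WT replicate 2 lay close under WT+P replicate 1. Of the 36 tested Wnt genes Dkk2 was the one called, and their median was 0.04.

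The gene group with the highest median had no edgeR call. Among 38 tested targets and regulators of ATF4, the factor of the integrated stress response that drives amino acid synthesis, transport and tRNA charging, the median log2 fold change was 1.46. Of these, 34 were higher at an unadjusted p under 0.05 (8.84% of all genes), 30 had no overlap (10.8%) and 35 were higher in both pairs (30.6%). In all 5 WT and KO pairs 33 were higher (14.6% of all genes), and DESeq2 called 16 higher (0.869%). The median was 2.31 in pair 1 and 0.58 in pair 2, and 1.11 without the library labelled WT replicate 1, where DESeq2 called 1 gene of the list. Nupr1, a stress-induced chromatin protein, was at 7.64, 15.2 and 7.22 CPM in WT and at 68.6 and 35.4 CPM in WT+P (log2 2.21 ± 0.41, edgeR adjusted p = 0.0994, DESeq2 2.88e-05). Chac1, which degrades glutathione and whose start region was shown above, was at 16.8, 26.9 and 26.3 CPM in WT and at 574 and 112 CPM in WT+P (log2 3.48 ± 0.69, edgeR adjusted p = 0.133, DESeq2 0.00076). In both, the treated libraries lay above all untreated ones, and WT+P replicate 1 was the higher.

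The same order of the treated libraries held in Asns, Slc7a5 and Atf4, which were named after their values were seen. Asns, asparagine synthetase, was at 32.2, 46.3 and 37.8 CPM in WT and at 404 and 108 CPM in WT+P (log2 2.43, edgeR adjusted p = 0.19). Slc7a5, the large neutral amino acid transporter of the blood-brain barrier, was at 96.2, 112 and 103.6 CPM in WT and at 486 and 171 CPM in WT+P (log2 1.54). Atf4 itself was at 265, 242 and 314 CPM in WT and at 1078 and 356 CPM in WT+P (log2 1.20 ± 0.34, edgeR adjusted p = 0.28). The second treated library was above the untreated range in each, by a smaller margin. Cars1, a tRNA synthetase, had log2 1.14 (edgeR adjusted p = 0.146), and Slc6a9, a glycine transporter, 4.13 (0.186), with 33.8% of its exonic bases shared with another gene.

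**Figure D3:**
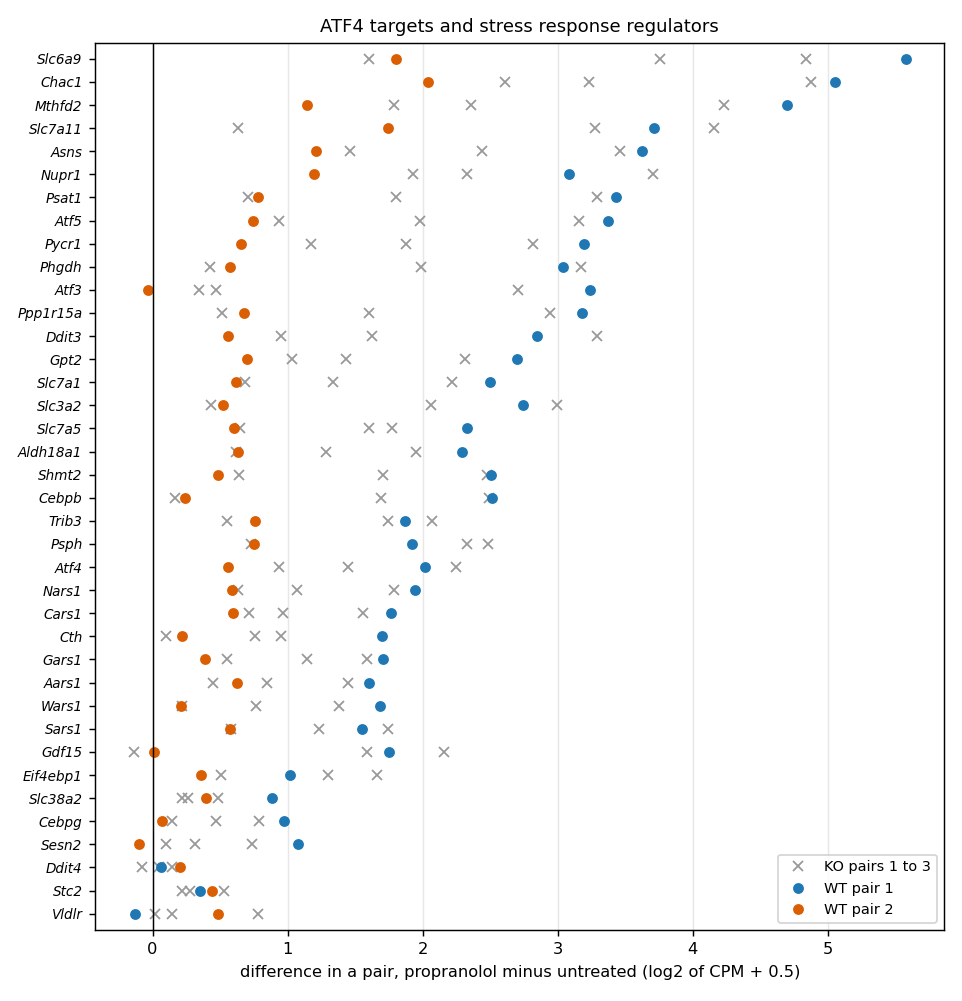
Difference between the propranolol and the untreated library of each pair, in log2(CPM + 0.5), for the 38 tested ATF4 targets and stress regulators, ordered by the fitted fold change. WT pair 1 (blue) has a median of 2.31, WT pair 2 (orange) of 0.58, and the crosses of KO pairs 1 to 3 have medians of 2.23, 1.51 and 0.60.

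Chaperones of the endoplasmic reticulum and genes of the XBP1 branch were higher mostly in the first pair. Their median was 1.67 in pair 1, 0.10 in pair 2 and 0.85 in the fit over 28 genes. By edgeR 0 were called and 18 were higher at an unadjusted p under 0.05 (8.84% of all genes). DESeq2 called 1, Herpud1, a factor of protein degradation at the reticulum. Herpud1 was at 64.1, 56.0 and 61.2 CPM in WT and at 440 and 86.6 CPM in WT+P (log2 1.84 ± 0.49, edgeR adjusted p = 0.279, DESeq2 0.0148). Hspa5, the main chaperone BiP, named after its values were seen, was at 329, 506 and 371 CPM in WT and at 4604 and 593 CPM in WT+P (log2 2.27 ± 0.81, edgeR adjusted p = 0.346), with 44.2% of its exonic bases shared with another gene. In both genes WT+P replicate 1 stood far above the other 4 libraries, and WT+P replicate 2 was above the untreated range by much less.

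The 1 gene called lower was Exosc6 (chr8:111782971-111784296), a subunit of the RNA exosome. It had 365, 682 and 337 estimated counts in WT and 0 in both WT+P libraries, which against a floor of 3 counts over the group is at least 293-fold lower (edgeR adjusted p = 0.0363, and 0.0193 without the block). It was also at 0 in all 3 KO+P libraries. All of its 1326 exonic bases lie within Aars1, an alanyl-tRNA synthetase of the ATF4 list, so its value is uncertain. Aars1 was at 138, 143 and 155 CPM in WT and at 420 and 221 CPM in WT+P (log2 1.04, edgeR adjusted p = 0.246).

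The β-adrenergic receptors and their signalling chain gave 0 calls in either tool. Adrb1, the β1 receptor, was under the filter, with at most 0.299 CPM in any of the 5 libraries. Adrb3 was at 0.230, 1.76 and 0.328 CPM in WT and at 0.231 and 2.25 CPM in WT+P, so its groups overlapped. Of 44 tested members of 55, which also include adenylyl cyclases, phosphodiesterases and protein kinase A subunits, the median was -0.08. At an unadjusted p under 0.05, 4 were higher and 3 lower, near the shares over all genes (8.84% and 4.6%). The members with the smallest p were Prkar2b, a kinase A regulatory subunit (log2 1.07), the adenylyl cyclase Adcy4 (0.72) and the phosphodiesterases Pde4b (-1.07) and Pde8a (-0.49), with edgeR adjusted p of 0.328 to 0.348.

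Of the genes that the study followed by RT-qPCR, Klf2, Klf4, Adamts1, Nos3 and Thbs1 are given here, and neither tool called one of them with all libraries. Klf4, a shear-stress factor of endothelium, was at 68.5, 105.5 and 28.5 CPM in WT and at 155 and 143 CPM in WT+P (log2 1.19 ± 0.41, edgeR adjusted p = 0.342), and Adamts1, a matrix protease, at 156, 88.2 and 67.3 CPM in WT and at 212 and 172 CPM in WT+P (log2 0.91 ± 0.38, edgeR adjusted p = 0.355). In both the WT+P libraries lay above the WT range, but the untreated spread was wide. Without the library labelled WT replicate 1, Adamts1 had log2 1.44, with an adjusted p of 0.769 in edgeR and 0.0291 in DESeq2, which called it. Klf2 was at 269, 277 and 82.8 CPM in WT and at 218 and 256 CPM in WT+P (log2 0.15 ± 0.46, edgeR adjusted p = 0.888), so the treated values fell inside the untreated range. Nos3, endothelial nitric oxide synthase, had log2 -0.38 (edgeR adjusted p = 0.607, with 32.7% of its exonic bases shared with another gene) and Thbs1, thrombospondin, 0.38 (0.385). For Pdcd10 itself the difference was 0.74 ± 0.46 (edgeR adjusted p = 0.457), and 0.13 without the library labelled WT replicate 1. Over the 25 tested genes of the KLF axis the median was 0.15.

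Endothelial identity genes were lower in the first treated library and near the untreated range in the second. All 18 endothelial markers had a fold change below 0, with a median of -0.50 (-0.94 in pair 1, -0.06 in pair 2, and -0.30 without the library labelled WT replicate 1). By edgeR 0 were called, 7 were lower at an unadjusted p under 0.05 (4.6% of all genes), and DESeq2 called 0. Both WT+P libraries were below all WT libraries for 9 of them (10.3% of all genes). Cdh5, VE-cadherin, was at 4256, 3508 and 5186 CPM in WT and at 2698 and 3390 CPM in WT+P (log2 -0.45, edgeR adjusted p = 0.346). Cldn5, the main claudin of the blood-brain barrier, was at 1678, 1272 and 1256 CPM in WT and at 397 and 973 CPM in WT+P (log2 -0.97, edgeR adjusted p = 0.347). Both had no overlap, and in Cldn5 the first treated library was much the lower. In Sox18, an endothelial transcription factor named after its values were seen, the WT libraries were at 1100, 773 and 686 CPM and the WT+P libraries at 69.0 and 474 CPM (log2 -1.65, edgeR adjusted p = 0.395). In bulk RNA, fewer cells of a type and less RNA per cell cannot be told apart.

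**Figure D4:**
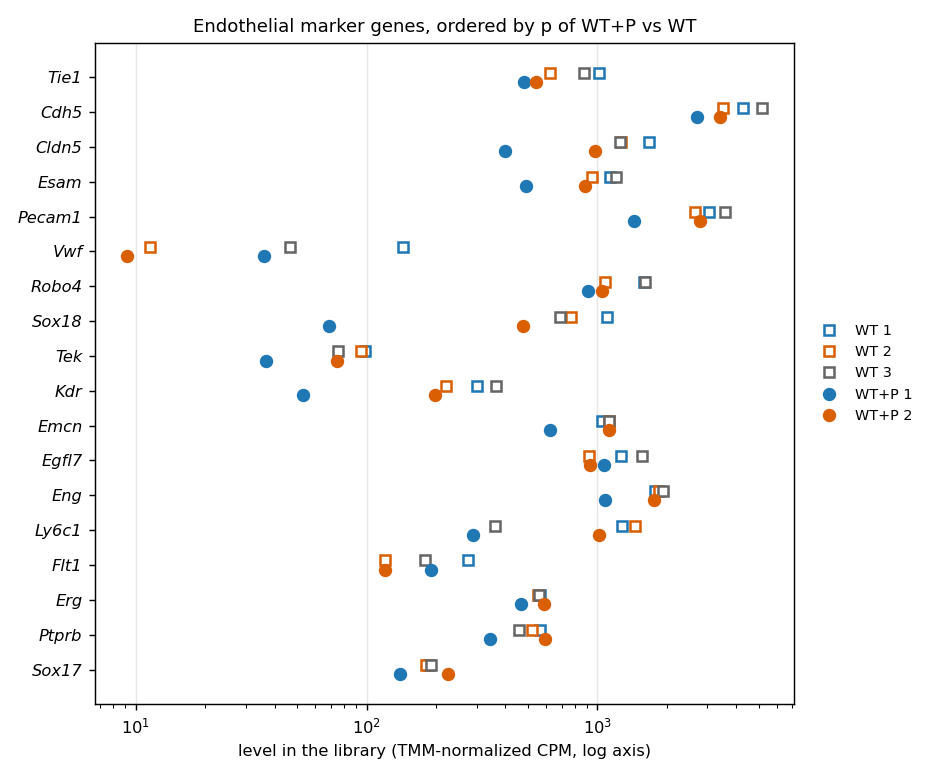
Level of the 18 endothelial markers in TMM-normalized CPM on a log axis, 1 point per library, ordered by the edgeR p-value. Open squares are WT and filled circles WT+P; the blue circle (WT+P replicate 1) is often far left, as for Sox18 at 69.0 CPM, and the orange circle (WT+P replicate 2) is near the squares.

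Related lists had the same split between the pairs. The 38 tested VEGF, angiopoietin and tip cell genes had a median of -0.39 (-0.86 in pair 1, -0.05 in pair 2). Of these, 8 were lower and 2 higher at an unadjusted p under 0.05 (4.6% and 8.84% of all genes). The 31 Notch and arteriovenous genes had a median of -0.40 (-0.79 and -0.09), with 6 lower and 2 higher. In neither did edgeR call a gene, and DESeq2 called 1 lower in the Notch list, Gja5, the connexin of arterial endothelium. It was at 10.6, 7.58 and 16.4 CPM in WT and at 0.786 and 3.67 CPM in WT+P (log2 -2.13, edgeR adjusted p = 0.28, DESeq2 0.0168). Both treated libraries were below all untreated ones. Dll4, a Notch ligand of arteries and tip cells, had log2 -0.97 (edgeR adjusted p = 0.337).

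Most proliferation genes were lower in both pairs, without a call. The 57 replication and S phase genes had a median of -0.37 in the fit, -0.56 in pair 1 and -0.60 in pair 2, and 50 were lower in both WT pairs (31.2% of all genes) and in all 5 WT and KO pairs (15.4%). The 61 mitosis and G2/M genes had -0.64, -1.04 and -0.70, and 57 were lower in both WT pairs and in all 5. At the level of single genes, 2 S phase genes and 0 mitosis genes were lower at an unadjusted p under 0.05 (4.6% of all genes). Neither tool called a member lower or higher, and 1 and 0 members had WT+P below all WT libraries (10.3% of all genes). The treated values thus overlapped the untreated ones across pairs. Without WT replicate 2 the medians were -0.08 and -0.19, and without WT replicate 3 they were -0.59 and -0.94.

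The 48 interferon and antigen presentation genes had a median of -0.42 (-0.51 and -0.25), with 31 lower in both pairs (31.2% of all genes). At an unadjusted p under 0.05, 11 were lower (4.6% of all genes), and edgeR called 0. DESeq2 called 1 lower, Ifit3, an interferon-induced antiviral protein (log2 -0.95, DESeq2 adjusted p = 0.0386, edgeR 0.267). The 76 nuclear genes of oxidative phosphorylation had a median of -0.22, again in pair 1 (-0.46) more than in pair 2 (-0.04), with 11 lower at an unadjusted p under 0.05 and 0 called by either tool. In the other 19 lists, from lysosomal enzymes and LXR targets to tight junctions, matrix, coagulation and ribosomal proteins, medians ran from -0.26 to 0.29 over 625 genes. There edgeR called 0, and DESeq2 called 7 higher and 0 lower. At an unadjusted p under 0.05, 61 were higher and 42 lower, against 8.84% and 4.6% of all genes. These lists were not alike, and glycolysis and tight junction genes held the most of those lower. Of 38 glycolysis and hypoxia genes 10 were lower and 4 higher, with medians of -0.54 in pair 1 and 0.04 in pair 2. Of 23 tight junction genes 7 were lower and 1 higher, with medians of -0.66 and 0.01, a split like that of the endothelial markers.

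**Figure D5:**
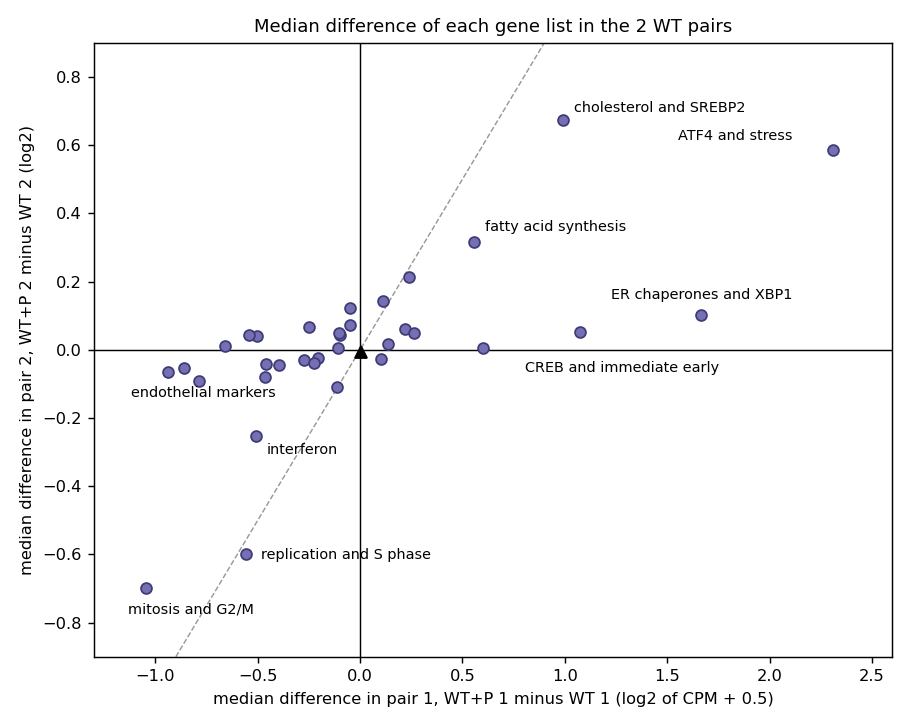
Median log2 difference of each of the 33 gene lists and of the endothelial markers in WT pair 1 (x axis) against WT pair 2 (y axis), 1 circle per list; the triangle marks all tested genes and the dashed line equal values on both axes. Cholesterol genes lie at 0.99 and 0.67, ATF4 genes at 2.31 and 0.58, and mitosis genes at -1.04 and -0.70.

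Whether the effect in WT cells differed from that in KO cells was asked by the interaction of drug and genotype. By edgeR 0 of 14838 genes (0%) passed an adjusted p of 0.05, with 422 (2.84%) at an unadjusted p under 0.05. Over all genes that it adjusted, DESeq2 called 12. In KO cells the 11 genes had log2 fold changes of 0.65 to 2.21 and were higher in all 3 KO pairs, and edgeR called 8 of them in KO+P against KO, where 0.135% of genes were called higher. Their interaction values ran from -0.93 to 0.31, 9 of them below 0, with unadjusted p of 0.0796 to 0.921. The WT effect that chose these 11 genes is also subtracted in the interaction, so values below 0 are partly set by that choice. No difference passed, which does not show that the effects are alike. Atp2a3 had 2.93 in WT and 2.00 in KO, Nr4a1 had 2.71 and 1.81, Insig1 had 2.26 and 2.21, and Fdps had 1.36 and 1.67. For the cholesterol list the medians were 0.84 in WT and 0.86 in KO, where edgeR called 12 of 28 higher, and for the ATF4 list 1.46 and 1.498. The proliferation lists had larger negative medians in KO cells, -0.86 for S phase and -1.32 for mitosis against -0.37 and -0.64 in WT. There DESeq2 called 37 and 38 genes lower, among 418 higher (2.82%) and 506 lower (3.41%) of all genes, and edgeR called 0 of either list. KO cells had been given 4-hydroxytamoxifen and WT cells had not, so genotype and that exposure cannot be told apart.

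Against rapamycin, the other drug given to WT cells, sterol genes were higher with propranolol. The WT+P libraries are those that chose the 11 genes above, so the count of these genes is a description and is partly set by that choice. In WT+P against WT+R edgeR called 428 genes higher (2.88%) and 303 lower (2.04%). Of the 11 genes, 10 were called higher in WT+P, all but Dkk2 (log2 0.82, edgeR adjusted p = 0.116). Hmgcs1 was at 28.9 and 27.8 CPM in WT+R, below its untreated level, and its log2 difference between the drugs was 1.37 (edgeR adjusted p = 0.00112). Of 28 cholesterol genes 21 were called higher with propranolol, with a median of 1.18, as were 22 of 38 ATF4 targets and 8 of 25 fatty acid genes. Slc7a5, for example, was at 28.9 and 31.7 CPM in WT+R.

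The 5 genes with the smallest p between the drugs were not sterol genes, and in 4 of them WT+P lay in or near the untreated range while WT+R stood apart. Smad7, an inhibitor of TGF-β and BMP signals, was at 18.8, 21.3 and 19.5 CPM in WT, 21.4 and 20.6 CPM in WT+P and 78.3 and 84.3 CPM in WT+R (log2 -1.95, edgeR adjusted p = 4.73e-05). Smad1, a BMP effector, was at 288, 183 and 232 CPM in WT, 263 and 181 CPM in WT+P and 107 and 69.9 CPM in WT+R (log2 1.34, edgeR adjusted p = 0.000423). Dlgap3, a scaffold protein known from synapses, was at 28.2, 15.2 and 17.4 CPM in WT, 28.0 and 16.1 CPM in WT+P and 0.895 and 1.12 CPM in WT+R. Fxyd6, a regulator of the sodium pump, was at 42.0, 39.5 and 30.1 CPM in WT, 36.4 and 36.7 CPM in WT+P and 2.15 and 3.22 CPM in WT+R. The exception was Nos2, inducible nitric oxide synthase, at 26.7, 42.7 and 25.5 CPM in WT, 83.9 and 51.7 CPM in WT+P and 5.50 and 4.51 CPM in WT+R, where both drugs lay outside the untreated range on opposite sides.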

How the data were processed

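Poly(A) RNA-seq of 16 libraries was deposited as 1 Salmon quantification per library, with estimated counts and TPM (a length-corrected share of transcripts) per transcript, made by the authors. The submitters' processing notes name Trim Galore 0.6.7 and Salmon 1.5.2, while the study's methods describe a genome alignment with gene counting, so the deposited counts and the study's own counts may differ. The kit did not keep strand. The deposited TPM values were not used, and effective lengths entered as an offset in 1 alternative.

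The deposited estimated counts were summed per gene with GENCODE M39 on GRCm39 (139544 of 140789 transcripts matched, which held 99.4 to 99.6% of counts), rounded, and filtered with edgeR's filterByExpr, which left 14838 genes. edgeR 4.0.16 (TMM, glmQLFit and glmQLFTest, R 4.3.3) was fitted to all 16 libraries with group and replicate number as terms, leaving 8 residual degrees of freedom and a biological coefficient of variation of 19.0% (32.3% without the replicate term). Calls needed an adjusted p (Benjamini-Hochberg, all tested genes) under 0.05 with a fold over 1.5, and for the interaction the adjusted p alone. DESeq2 1.42.0 with the same terms was the alternative test. Fold changes are fitted values ± SE, where the SE is the absolute log2 fold change divided by the square root of the test's F statistic. Differences within a pair are of log2(CPM + 0.5).

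The labels do not say that a replicate number marks a shared culture. The comparison was defined with pairs. Deviations from the group means of same-numbered WT and WT+P libraries correlated at 0.503 and 0.591. The median was 0.579 over 36 same-numbered pairs of all groups (the lowest -8.5e-05 for 1 pair) and -0.254 over 70 differently numbered pairs. With 2 libraries in WT+P, their deviations are mirror images. WT replicate 1 thus correlated at 0.503 with WT+P replicate 1 and at -0.503 with WT+P replicate 2. Many of these pairs are therefore not independent. Centring small groups also pushes differently numbered pairs below 0, so the contrast with -0.254 is partly arithmetic. Whether same-numbered libraries share a culture was not tested. P-values rest on the spread left over all 16 libraries after the group and replicate terms, not on that of the WT and WT+P libraries alone. In simulated counts of this design, the test recovered 66 of 109 genes changed by 1 on the log2 scale and 89 of 91 changed by 2, with 9 false calls. The changed genes were drawn from those above a minimum mean level and changed alike in both WT+P libraries. In the data the 2 pairs were unlike (SD 0.734 and 0.350), so these figures do not give the recovery in this comparison. The libraries were chosen by genotype and treatment, and the 33 gene lists and the 8 marker lists with earlier results of these data known. Genes were named by rule: the called genes that did not overlap between the groups and agreed in direction in both pairs, up to 4 further members of a list by smallest p, the 5 smallest p between the drugs, Pdcd10 and 5 genes of the study's RT-qPCR. Genes such as Adrb1, Adrb3, Insig2 and Aars1 fall outside these rules. Further ones are said to have been named after their values were seen. The alternatives were another normalization, no filter, no replicate term, DESeq2, a test against the fold threshold, fewer libraries in the fit and leaving out each library. Some genes and sequences are not reported here.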

Additional observations from a re-analysis of the deposited data

Results flagged for a closer look

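Klf2, a shear-stress factor that rises when Ccm3 is lost, differed in sign between the genotypes within pairs, but not in the fit. The log2 difference between the propranolol and the untreated library was -0.30 and -0.11 in WT pairs 1 and 2, and 0.26, 0.10 and 0.01 in KO pairs 1 to 3. The fitted effects, which also use the unpaired WT replicate 3, were both above 0 (log2 0.15 in WT and 0.12 in KO). The tested difference, the effect in KO minus that in WT, was -0.0337 with an edgeR adjusted p of 1, so it did not pass.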

How the results depend on the processing

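The 12 calls of WT+P against WT depend on the replicate block and on single libraries. Against 12 with the block, edgeR called 1 gene with no replicate block, 36 with no filter on low counts, 0 when testing against the 1.5-fold threshold with glmTreat (419 at an unadjusted p under 0.05), 0 with the 7 WT libraries alone, 4 with the 5 WT and WT+P libraries and 0 with the 4 paired ones. DESeq2 counts here and below are over all genes which that tool adjusted, 20893 with the block and all libraries, and not over the tested genes of edgeR. DESeq2 called 154 with the block (136 higher, 18 lower) and 117 without. Leaving out 1 library at a time gave 0 to 1328 calls: 0 without the library labelled WT replicate 1 (889 at an unadjusted p under 0.05), 1 without WT replicate 2, 14 without WT replicate 3, 0 without WT+P replicate 1 (311) and 1328 without WT+P replicate 2 (768 higher, 560 lower). With 1 treated library left, that library is assumed to vary like the other groups. In alternatives chosen after seeing the data, edgeR without the block and without WT replicate 1 called 0, and DESeq2 with the block called 61 without WT replicate 1, 15 without WT+P replicate 1 and 2037 without WT+P replicate 2. Other normalizations and a minimum of 10 counts left 12, and an effective length offset 9. The 11 genes called higher stayed above 0 in every setting run. Why the calls depend on these settings was not tested.

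The difference between KO and WT (0 calls) had 12 calls in DESeq2 with the block and 0 in each other setting, 0 to 0 when 1 library was left out. For WT+P against WT+R (731 calls), edgeR called 194 without the block, 151 with glmTreat and 19 with the 7 WT libraries, and DESeq2 1230 with the block. Leaving out 1 library gave 86 to 1766 (163 without WT+P replicate 1, 1766 without WT+P replicate 2, 86 without WT+R replicate 1 and 408 without WT+R replicate 2).

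Small log2 differences changed sign. Klf2 was at -0.2158 with the 7 WT libraries, -0.2107 with the 5 and -0.2058 with the 4 paired libraries, and from -0.2101 (without WT replicate 3) to 0.535 (without WT replicate 1) when 1 library was left out. Scap ran from -0.01073 to 0.086, with -0.01302 without the block and WT replicate 1 and -0.02069 in DESeq2 without WT+P replicate 1. Nos3 was 0.001605 in DESeq2 without WT replicate 1. The oxidative phosphorylation list's median was 0.02 without WT+P replicate 1.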

Other observations

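Values of 4 further genes, chosen after they were seen, stood out beside the genes described above. Ptgs2, cyclooxygenase 2, which makes prostaglandins, was at 33.0, 188 and 89.2 CPM in WT and at 1046 and 613 CPM in WT+P (log2 3.25 ± 0.71, edgeR adjusted p = 0.19, DESeq2 0.00592). Its pairs differed by 4.55, 2.84 and 1.37 on the log2 scale in KO cells, so all 5 pairs were higher with the drug. Adm2, an adrenomedullin family peptide that acts on endothelium, was at 0.092, 0.112 and 0.082 CPM in WT and at 8.05 and 1.498 CPM in WT+P (log2 4.73 ± 0.75, edgeR adjusted p = 0.0696, DESeq2 0.000124), so it was nearly undetected without the drug. Sox11, a transcription factor, was at 0.276, 0.486 and 0.287 CPM in WT and at 2.03 and 4.89 CPM in WT+P (edgeR adjusted p = 0.191, DESeq2 0.00292). Kif14, a mitotic kinesin, was at 0.0374 CPM or below in WT and WT+P replicate 1 and at 3.39 CPM in WT+P replicate 2, and it was at 3.48 CPM in WT+R replicate 2.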
